A study of Mus musculus with 6 samples.

Results

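GATA3 knockdown in stimulated Th2-4th cells was read from a single pair of arrays, as the log2 ratio of cells given GATA3 siRNA to cells given control siRNA, both restimulated through the T cell receptor (TCR). Of 18194 genes named by a probe set, 7679 had a signal over 250 on at least 1 array of the pair, and the description below covers these genes. A gene's value comes from 1 probe set, of those naming that gene alone the one whose mean log2 signal over all 6 arrays was highest. At the edge of the limit, the higher signals of Rnf227, Alg13 and Tmem250-ps were 250.1, 250.4 and 250.5, and those of Plekhg2, St3gal5 and Cbfa2t3, which were left out, were all 249.9. Of the 7679 genes, 7150 were over 250 on both arrays and 529 on 1 array only.

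All cells were splenic CD4 T cells of mice, whose age the methods put at 6 to 8 weeks. Th2-1st denotes effector Th2 cells after 5 days of TCR stimulation in the presence of 25 U/ml IL-2 and 100 U/ml IL-4, conditions for which the methods name C57BL/6 mice as a source. Th2-4th denotes fully developed Th2 cells of 4 weeks: after those 5 days came 2 days without added cytokines and then 5 days with immobilized anti-TCR mAb, IL-2 and an IL-4 blocking mAb, in a cycle that per the labels was repeated 3 times. Either 1 GATA3 siRNA or 1 control siRNA was nucleofected (the labels also call the control cells mock-transfected), and 24 h later the cells were left unstimulated or received immobilized anti-TCR mAb for 4 h. Each culture gave 1 array of unstimulated control cells, 1 of stimulated control cells and 1 of stimulated GATA3 siRNA cells. GATA3 siRNA cells were thus measured only after stimulation. With 1 array per condition there is no replicate error, and no difference below was tested. Where a gene "fell" or "rose", its GATA3 siRNA signal was under 0.5-fold or over 2-fold of the control signal, a threshold and not a test.

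GATA3 is a zinc finger transcription factor that binds GATA sequences in DNA and is required for CD4 T cells to become Th2 cells, which produce IL-4, IL-5 and IL-13. Engagement of the TCR activates NFAT, NF-kappa B and AP-1 factors, which within hours induce cytokine, chemokine and immediate early genes on top of the lineage program. Small interfering RNA directs the degradation of a matching mRNA, here that of Gata3.

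The 250 bases upstream of the RefSeq gene start are shown for 4 genes that lay among the lowest knockdown ratios (GRCm38.p6, 5′ to 3′ in the direction of the gene), as context for a factor that binds GATA sequences. Capitals mark the motif AGATA or TGATA followed by an A or a G, on either strand and with no overlap between matches. Il5, the eosinophil growth factor (chr11:53720544-53720793, plus strand), had 1 match, which began 72 bases before the start. Il6, a cytokine of inflammation (chr5:30012864-30013113, plus strand), had 1 match, 55 bases before it. Stfa3, a stefin that inhibits cysteine proteases (chr16:36455393-36455642, minus strand), had 2 matches, 66 and 39 bases before it. Ggct, a gamma-glutamylcyclotransferase of glutathione turnover (chr6:54992868-54993117, minus strand), had none in this window.
Il5: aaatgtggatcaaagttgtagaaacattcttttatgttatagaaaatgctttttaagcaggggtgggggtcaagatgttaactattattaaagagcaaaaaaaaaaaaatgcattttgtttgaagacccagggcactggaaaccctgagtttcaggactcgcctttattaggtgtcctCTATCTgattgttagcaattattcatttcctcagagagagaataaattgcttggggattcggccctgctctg
Il6: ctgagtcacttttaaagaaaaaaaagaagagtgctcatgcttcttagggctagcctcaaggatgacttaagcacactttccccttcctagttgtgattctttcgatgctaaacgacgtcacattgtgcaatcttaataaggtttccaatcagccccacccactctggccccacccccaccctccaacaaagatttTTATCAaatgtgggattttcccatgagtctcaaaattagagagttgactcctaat
Stfa3: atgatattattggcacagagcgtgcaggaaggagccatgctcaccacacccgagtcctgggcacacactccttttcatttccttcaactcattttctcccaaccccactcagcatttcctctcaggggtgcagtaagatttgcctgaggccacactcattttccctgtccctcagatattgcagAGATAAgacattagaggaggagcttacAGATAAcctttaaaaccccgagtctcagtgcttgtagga
Ggct: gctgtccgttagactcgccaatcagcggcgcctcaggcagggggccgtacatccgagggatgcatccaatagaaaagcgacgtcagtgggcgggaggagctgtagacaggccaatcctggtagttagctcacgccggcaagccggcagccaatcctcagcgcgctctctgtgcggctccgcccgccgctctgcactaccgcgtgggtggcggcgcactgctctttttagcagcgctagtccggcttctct
In windows of 300 bases, 250 before and 50 after the start, such a match lay in 26 of 111 windows (23.4%) of genes that fell and in 17 of 78 (21.8%) of genes that rose. The share was 17.8% (1440 of 8089) over the windows of all genes over the signal limit and 29.8% (9778 of 32851) over all windows of the table. A match is a string of letters and does not show binding.

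On these arrays the median signal was 72.8 in stimulated control cells and 71.0 in stimulated GATA3 siRNA cells, so that a ratio with a signal near or below these values rests on a dim probe set. As a sign of RNA integrity, the ratios of 3′ to 5′ control signals in stimulated control and GATA3 siRNA cells were 1.32 and 1.36 for Actb and 0.767 and 0.776 for Gapdh. They lay further apart for pyruvate carboxylase (1.36 and 0.970), the transferrin receptor (11.4 and 14.1) and 18S RNA (0.464 and 0.367), and the part of these differences in the results was not tested. Over the 7679 genes the median knockdown ratio was 0.01 (log2), with 3704 ratios below 0 and 3975 above it, and the central 95% of genes lay between -0.78 and 0.77. That range narrowed only a little with signal, from -0.89 to 0.95 in the 1649 genes whose higher signal was 250 to 500 to -0.76 to 0.55 in the 1399 genes over 4000. In all, 101 genes (1.32% of the 7679) fell and 72 (0.938%) rose. Of the genes that fell, 41 had a GATA3 siRNA signal at or below 250, and of the genes that rose, 36 had a control signal at or below it. Where a called gene had other probe sets over 250, the one brightest in stimulated control cells was past 2-fold in the same direction for 22 of 31 genes that fell and 8 of 16 that rose, and none was past 2-fold in the opposite direction. The split changed from 19 fallen and 4 risen genes over a signal of 4000 to 34 and 32 in the dimmest range.

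Gata3 itself gave signals of 4846 in unstimulated control cells, 9261 in stimulated control cells and 2853 in stimulated GATA3 siRNA cells, a knockdown ratio of -1.70. The siRNA cells therefore kept a Gata3 signal, below that of unstimulated control cells. Of the 9 listed CD4 T cell markers, the 7 with a probe set were over 250 and within 2-fold, with summed signals of 72443 in control and 74720 in GATA3 siRNA cells. None of 8 B cell and none of 10 myeloid markers was over 250, with summed signals of at most 253 and 830 on the Th2-4th arrays. Of 6 measured CD8 T and NK cell markers 1 was over the limit, raised by anti-TCR and with a knockdown ratio of 0.22. The summed signals of that list were 354 in unstimulated control, 1001 in stimulated control and 1131 in stimulated GATA3 siRNA cells. Among other lineages' markers over the limit, the mast cell and basophil genes Mcpt8 and Cpa3 and the epithelial adhesion gene Epcam fell, and they are described below. In bulk RNA, fewer cells of a type and less RNA per cell cannot be told apart.

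Of the 101 genes that fell, 60 were genes that anti-TCR had raised over 2-fold in control cells, as it did 15.3% of all 7679. Il6 gave signals of 85.8 in unstimulated control cells, 45438 in stimulated control cells and 6104 in stimulated GATA3 siRNA cells, a knockdown ratio of -2.90. Il5 gave 696, 44722 and 10857 on the same arrays, a knockdown ratio of -2.04. Both cytokine genes were far above their unstimulated signal with or without GATA3 siRNA, and the 2 stimulated signals differed 7.44-fold for Il6 and 4.12-fold for Il5. Stfa3 gave 41.7, 3381 and 537, and Stfa2l1, its neighbour on chromosome 16 and of the same family, named after its values were seen, 8.55, 4282 and 1153. Stefin genes resemble each other, so the signals of these 2 genes may not be separate.

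In some induced genes the GATA3 siRNA signal was at, near or below that of unstimulated control cells. Unstimulated GATA3 siRNA cells were not measured, so a lower starting level and a smaller induction cannot be told apart. Ggct gave 521 without stimulation, 4617 after anti-TCR and 511 after anti-TCR with GATA3 siRNA, so that the last signal was back at the first. Another probe set of Ggct fell as well, from 437 to 36.3. Ccdc184, a coiled-coil gene, gave 669, 2523 and 329, the last below the unstimulated signal. Serinc5, a membrane protein that lowers the infectivity of retroviruses, gave 203, 1273 and 216, and Scin, which severs actin filaments, gave 239, 1288 and 247, both back near the unstimulated signal. Vcl, the focal adhesion protein vinculin, stayed above the unstimulated control signal, with 380.2, 2524 and 592. Gnai1, an inhibitory G protein subunit, gave 47.3, 395 and 82, of which the first was below the array median. Tmtc2, an O-mannosyltransferase, gave 174, 643 and 167. The ratios of Gpr183 and Aqp3, both near -3.21, rest on siRNA signals below the array median. Gpr183, the oxysterol receptor EBI2, gave 38.2, 439 and 46.7, and Aqp3, a water and glycerol channel named after its values were seen, 67.9, 407 and 43.8.

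**Figure D1:**
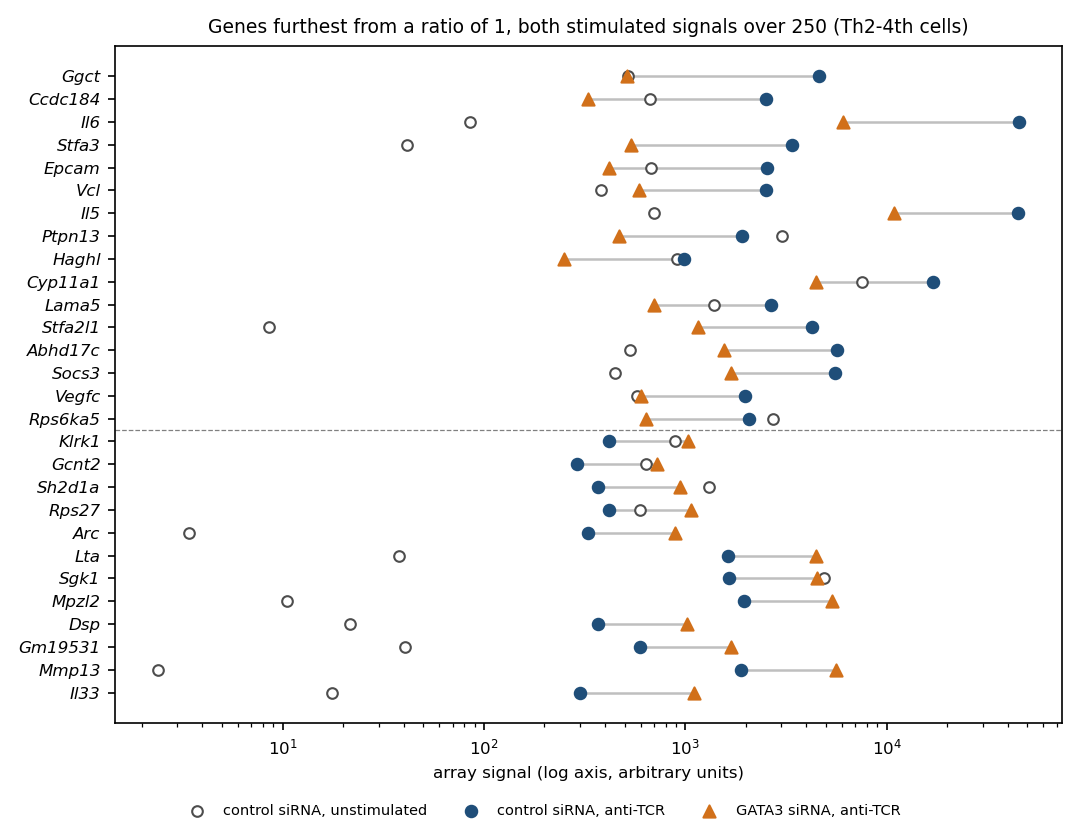
Signals of the 16 genes with the lowest (above the dashed line) and the 12 with the highest knockdown ratio among genes over 250 on both stimulated Th2-4th arrays (horizontal axis, log scale, arbitrary units, 1 symbol per array). Open circles are unstimulated control cells, filled circles stimulated control cells and triangles stimulated GATA3 siRNA cells, and in the upper part the triangle of Ggct covers its open circle while those of Il6 and Il5 stay far to the right of theirs.

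Over all 7679 genes, 1176 (15.3%) were raised over 2-fold by anti-TCR in control cells and 1275 (16.6%) were lowered to under 0.5-fold. Among the raised genes 60 fell with GATA3 siRNA (5.10%) and 27 rose (2.30%), with a median knockdown ratio of -0.16. Among the lowered genes 6 fell (0.471%) and 24 rose (1.88%), with a median of 0.20. The 5228 genes within 2-fold of their unstimulated signal had 35 that fell (0.669%) and 21 that rose (0.402%), with a median of 0.01. Part of these calls rests on genes over 250 on 1 array only. With both signals over 250, 37 of 1085 raised genes fell (3.41%) and 16 rose (1.47%), with a median of -0.15. Of 1121 lowered genes 2 then fell (0.178%) and 11 rose (0.981%), with a median of 0.17. Both groups of responding genes were thus displaced toward the unstimulated level, by far less than 2-fold at the median. The 11 reference genes, none of them raised or lowered 2-fold by anti-TCR, had a median of -0.20. After quantile normalization the medians were 0.01 for the reference, -0.14 for the raised and 0.19 for the lowered genes.

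This class and the knockdown ratio share the stimulated control array, so that an error of that array moves both. The genes were therefore also classed by the control arrays of Th2-1st cells, which share no array with the Th2-4th pair. By that class 831 genes (10.8%) were raised and 957 (12.5%) lowered, with median knockdown ratios in Th2-4th cells of -0.15 and 0.15, against 0.01 for the other 5891. Of the raised genes 49 fell (5.90%) and 25 rose (3.01%), and of the lowered genes 17 fell (1.78%) and 14 rose (1.46%). The medians kept their order under both classes, while the excess of risen over fallen genes among the lowered ones was found only with the shared array. In Th2-1st cells the knockdown medians of the Th2-4th raised and lowered genes were both 0.01, and the difference between cultures was not tested.

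**Figure D2:**
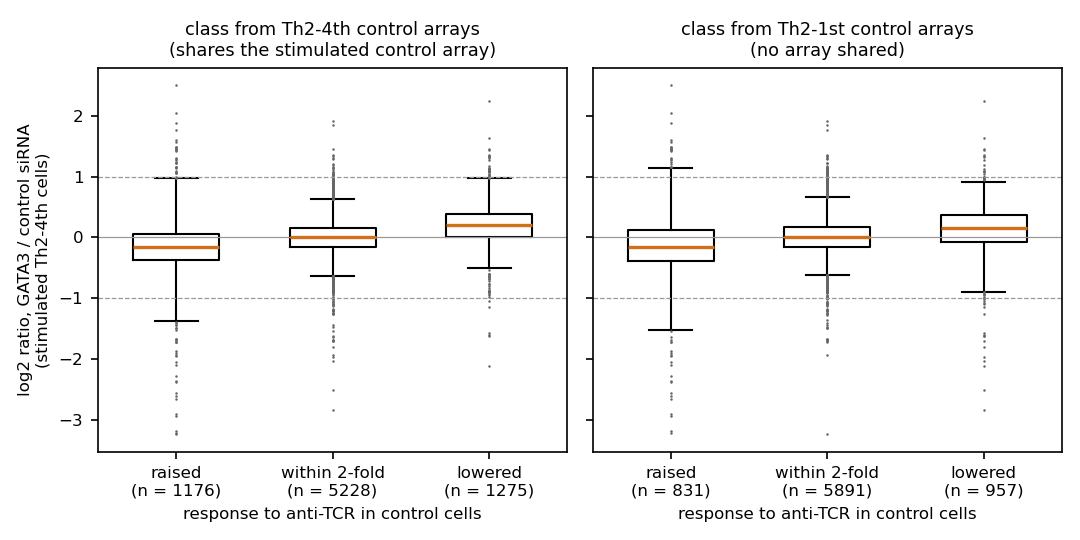
Knockdown ratio in stimulated Th2-4th cells (vertical axis, log2) of genes raised, within 2-fold or lowered after anti-TCR in control cells, with the class taken from Th2-4th arrays (left) or Th2-1st arrays (right). Boxes span the quartiles with the median in orange, whiskers the central 95% of genes and points the rest, and the medians run from -0.16 to 0.20 on the left and from -0.15 to 0.15 on the right.

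For a gene raised by anti-TCR, a share of the control rise was computed. It is the siRNA signal minus the unstimulated control signal, over the same difference for the stimulated control. The induction within GATA3 siRNA cells was not measured. Because the 60 genes were picked for a siRNA signal under 0.5-fold, a low share is built in, and the values only show how they spread. The median was 20.3% (range -32.4% to 48.5%), with 14 genes at or below the unstimulated signal, 21 under 10% and 24 over 25%. The share was 23.1% for Il5, 13.3% for Il6 and 24.2% for Socs3. In the 27 raised genes that rose further, the stimulated siRNA signal exceeded the unstimulated one by a median of 282% of the control's rise. These genes were picked for a siRNA signal over 2-fold of the control, so a high share is built in here too (lowest 208%). Of the 24 genes that anti-TCR lowered and that rose with GATA3 siRNA, 5 were at or above their unstimulated signal and 19 below it.

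Among Th2 genes the effect was uneven. The study's list of 17 Th2-specific genes bound by GATA3 had 14 over the signal limit, of which 7 fell and none rose, with a median of -0.99 against 0.01 for all genes and all 14 ratios below 0. The study selected these genes mostly on other samples and for high expression in Th2 cells. Gata3, the target of the siRNA, is itself among the 7 that fell. Besides Gata3 and Il5, Tmtc2 fell (-1.95), and Jdp2, an AP-1 repressor, gave 269, 273 and 78.5. Asb2, a substrate receptor of ubiquitin ligases, gave 3282, 3372 and 1054, and Nfil3, a leucine zipper factor, 3027, 3417 and 1694, just past the threshold at -1.01 and short of it at -0.98 after centring of the arrays. Cyp11a1, the enzyme that starts steroid synthesis, gave 7534, 17052 and 4446. The 2 other probe sets of Cyp11a1 went the other way, from 2043 to 2516 and, both below the array median, from 9.91 to 45.6. The mean ratio over its probe sets was 0.19.

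The type 2 cytokine genes other than Il5 stayed within 2-fold. Il13 gave 29.7 in unstimulated control cells, 35292 in stimulated control cells and 18108 in stimulated GATA3 siRNA cells, a knockdown ratio of -0.96. Il4 gave 729, 45979.6 and 38284, a ratio of -0.26 that ranged to -0.04 over the alternatives. The brightest probe set gave 58757 in stimulated control cells, and whether signals near it narrowed these ratios was not tested. Il24, of the IL-10 family, stood at -0.74, Il10, an inhibitory cytokine, at -0.44, and Il31, the itch cytokine, at -0.73. The ratio of Epas1, a hypoxia-inducible transcription factor, was -0.96, that of Itgb3, the beta 3 integrin, -0.68, that of Crem, a cyclic AMP responsive factor, -0.36 and that of the granule protease gene Gzma -0.34. Of 28 measured Th2 genes 21 were over the limit, 2 of which fell (Il5 and Nfil3) and 1 rose, with a median of -0.25. The gene that rose was Ccr3, the eotaxin receptor, at 4.69, 86.9 and 263, a dim probe set in control cells. Maf, a transcription factor of Il4, stood at 0.14, Stat6, which transmits IL-4 signals, at -0.12 and Il4ra, the IL-4 receptor alpha chain, at 0.50.

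The study's 15 Th2-specific genes without GATA3 binding had 11 over the limit, with a median of -0.43, 8 of the ratios being below 0. Tanc2, a scaffold protein, was the one that fell, with 678, 2146 and 867. Rnf128, the ubiquitin ligase GRAIL, stood at -0.92, F2r, a thrombin receptor, at -0.81, Ptgir, the prostacyclin receptor, at -0.72 and the calcium-binding protein gene S100a1 at -0.49. Il1r2, a decoy receptor for IL-1, stood at -0.43, Penk, the precursor of enkephalins, at -0.31 and Ecm1, an extracellular matrix protein, at -0.08. The MAP kinase phosphatase gene Dusp4 and the signalling inhibitor Spry2 stood at 0.14 and 0.14. Tube1, epsilon tubulin, gave 1129, 868 and 1734, a ratio just within 2-fold.

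Cytokine genes outside the type 2 group moved in both directions. The list of T cell growth and haematopoietic cytokines, which also holds Il5, had 23 genes over the limit, of which 5 fell (Il5, Il6, Lif, Bmp2 and Bmp7) and 1 rose, with a median of -0.27. Lif, of the IL-6 family, gave 124, 2316 and 928, and Bmp2, a bone morphogenetic protein, 239.8, 3719 and 1501. Its relative Bmp7 was highest without stimulation, with 981, 415 and 96.4. Il33, an alarmin of the IL-1 family, rose over its induced level, with 17.6, 300.1 and 1106. Strongly induced cytokines of other kinds differed little: the ratios were -0.12 for Il2, -0.26 for Il3, -0.37 for Csf2, which encodes GM-CSF, and -0.24 for Ifng.

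Of 13 TNF family ligand genes 1 fell and 1 rose, with a median of 0.05. Tnfsf10, the death ligand TRAIL, fell from 4007 to 1997, having been 998 before stimulation, and was short of 2-fold after centring (-0.97). Lta, lymphotoxin alpha, gave 38, 1638 and 4452. Its neighbours in function stood at 0.98 for Cd70, the ligand of CD27, 0.79 for Ltb, lymphotoxin beta, and 0.55 for Tnf. Tnfrsf1a, a receptor for both TNF and lymphotoxin, gave 273, 124 and 302, and was the 1 of 7 TNF receptor family genes past 2-fold.

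Among 12 chemokine genes, all of them induced by anti-TCR, 2 fell and 2 rose. Cxcl3, a ligand of CXCR2, gave 8.92, 429 and 192, and Ccl20, the ligand of CCR6, 10, 497 and 246, the latter short of 2-fold after centring (-0.98). The monocyte chemokine genes Ccl2 and Ccl12 rose, with 58.7, 253 and 618 for Ccl2 and 0.987, 210.3 and 865 for Ccl12. The more strongly induced Ccl3, Ccl4 and Ccl1 stood at -0.26, -0.16 and -0.22. Of 11 chemoattractant receptor genes, Gpr183 fell, as did Ptger4, the prostaglandin E2 receptor EP4, with 4404, 11789 and 5845, which was short of 2-fold after centring (-0.98). Gpr18, a receptor gene that lies next to Gpr183 on chromosome 14, rose, with 129.8, 156 and 562. Of 22 cytokine receptor genes only Il10ra, the IL-10 receptor alpha chain, was past 2-fold, with 168, 735 and 261.

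Most transcription factor genes of the early TCR response had ratios below 0. Of 25 AP-1, EGR and NR4A genes, 21 of them raised by anti-TCR, 4 fell and 1 rose. Their median was -0.36 and 18 ratios were below 0, as were 3704 of all 7679. The 1176 genes raised by anti-TCR were also shifted below 0, with a median of -0.16 and quartiles of -0.37 and 0.06. In Th2-1st cells the median of the 25 genes was 0.25, on the other side of 0, and the difference was not tested. Besides Jdp2, Atf3, a stress-induced repressor, gave 166, 2986 and 1036. Egr1, an immediate early zinc finger factor, gave 603, 22845 and 10517, and stood at -0.93 after quantile normalization. Maff, a small Maf protein, gave 12.3, 345 and 162. Batf3, the neighbour of Atf3 on chromosome 1, was the one that rose, with 95.4, 326 and 762. The orphan nuclear receptor genes Nr4a1 and Nr4a3 stood at 0.00 and -0.20, Egr2 at -0.14 and Fos at -0.28.

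None of 26 genes of the TCR complex and proximal signalling (median 0.03) and none of 23 NFAT and NF-kappa B genes (median -0.03, 0.00 after centring) was past 2-fold. The lowest of the former was Ubash3a, a TCR signalling phosphatase, at -0.72. Among the latter Nfkbiz, an inducible I kappa B protein, was lowest at -0.86 and Rcan1, a calcineurin inhibitor, highest at 0.94. Among 29 MAP kinase and cytokine feedback genes Socs3, an inhibitor of cytokine signalling, fell and the phosphatase gene Dusp10 rose. Socs3 gave 449, 5534 and 1678, and Dusp10 137, 182 and 385. The related Socs1 and Socs2 stood at 0.40 and 0.53.

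Genes of other T cell states, on short lists, were called in both directions. Over all 7679 genes 1.32% fell and 0.938% rose, and differences of the lists from these shares were not tested. Of 18 Th1 genes 1 was past 2-fold, Klrk1, the activating receptor NKG2D, with 893, 417 and 1029. Tbx21, the Th1 factor T-bet, stood at 0.04, Stat4, which transmits IL-12 signals, at 0.71 and Il18r1, an IL-18 receptor chain, at 0.88, and the list's median was 0.03. Of 6 Th17 genes Ahr, the aryl hydrocarbon receptor, fell from 447 to 136, and Ccl20 was the other. Itgae, the CD103 integrin chain, was the 1 of 13 regulatory T cell genes to fall. It gave 2549, 1354 and 239, and another probe set fell from 416 to 99.2. Of 10 follicular helper genes Tox2 fell, from 548 to 233. Sh2d1a, the SLAM adaptor SAP, and Cd200, an inhibitory ligand, rose, the first with 1310.2, 369 and 943 and the second with 35.8, 428 and 955. Id3, an inhibitor of E proteins, was the 1 of 12 naive and memory genes to fall, with 2297, 281 and 91.3.

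Of 20 inhibitory and costimulatory receptor genes 2 rose, Cd200 and Lag3, the latter from 134 to 283, and none fell. Their median of 0.37 was the highest of the 32 lists and 13 of the 20 ratios were above 0, and Cd274, which encodes PD-L1, and Icos, a costimulator, were the lowest at -0.82 and -0.81. Of 18 cytotoxic granule and NK receptor genes 1 was past 2-fold, again Klrk1, while the granzyme genes Gzmb and Gzmd stood at -0.22 and -0.17 and Prf1, perforin, at 0.46.

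Lists of general cell functions had no gene past 2-fold, with shifts of their medians. All 24 ribosome biogenesis genes had ratios below 0, from -0.73 to -0.08, with a median of -0.32. Examples are Rrp9 and Rrs1, ribosome assembly factors, at -0.73 and -0.65, and Ncl, nucleolin, at -0.28. Anti-TCR raised 20 of the 24 over 2-fold, and the median of all 1176 raised genes was -0.16. The median of the 24 ribosome biogenesis genes was -0.07 in Th2-1st cells. Of 33 cell cycle genes 29 had ratios above 0, as had 3975 of all 7679, with a median of 0.24 against -0.05 in Th2-1st cells. Mki67, a marker of cycling cells, stood at 0.28, the replication helicase gene Mcm4 at 0.37 and Cdk4, a kinase of the G1 phase, was the lowest at -0.51. These medians ranged from -0.44 to -0.26 for ribosome biogenesis and from 0.22 to 0.30 for the cell cycle over the alternatives.

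The 11 reference genes, chosen for stable expression, had a median of -0.20, which was 0.01 after quantile normalization. The lists of glycolysis (19 genes), unfolded protein response (22), cholesterol and fatty acid synthesis (16), amino acid supply (20), interferon response (17) and BCL2 family genes (19) held no gene past 2-fold, and their medians lay between -0.13 and 0.12. Ggct was the 1 of 18 glutathione and redox genes past 2-fold, while Gclc, the first enzyme of glutathione synthesis, stood at -0.67 and Gss, the next enzyme, at 0.32. Of 24 genes of GATA3 cofactors and chromatin regulators only Id3 was past 2-fold, and Zfpm1, which encodes the GATA cofactor FOG-1, stood at -0.53.

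**Figure D3:**
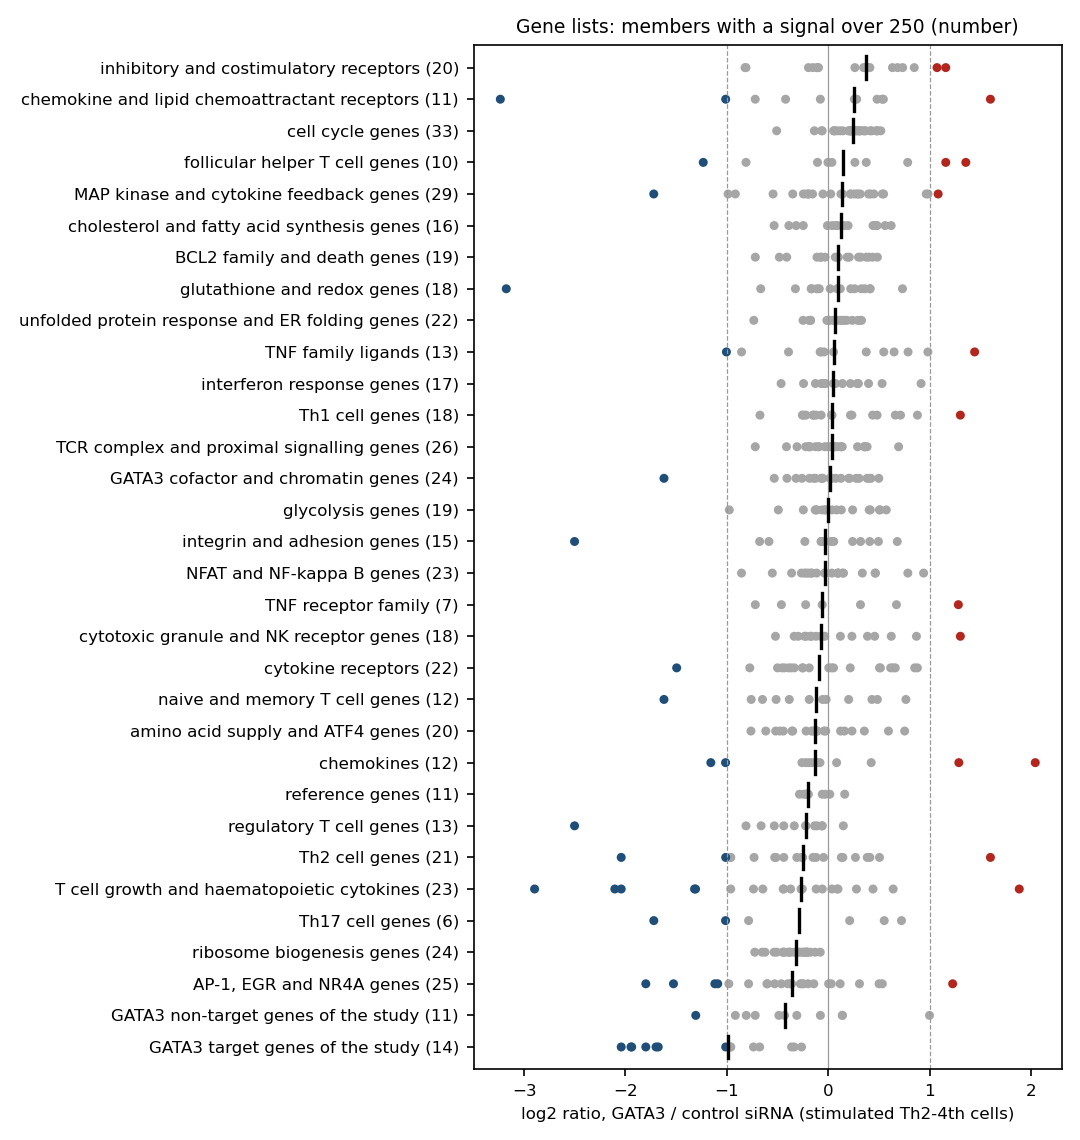
Knockdown ratio in stimulated Th2-4th cells (horizontal axis, log2) of the members of each gene list with a signal over 250, 1 point per gene, with the number of genes in brackets. Black bars are medians and blue and red points genes under 0.5-fold and over 2-fold, and the list medians run from -0.99 for the GATA3 target genes to 0.37 for inhibitory and costimulatory receptors.

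Markers of other cells were among the genes that fell. Mcpt8, a basophil protease, gave 183 in unstimulated control cells, 873 in stimulated control cells and 171 in stimulated GATA3 siRNA cells. Cpa3, a mast cell carboxypeptidase named after its values were seen, gave 582, 320.2 and 44.9. The other 6 measured mast cell and basophil markers, among them the IgE receptor gene Fcer1a and Kit, were at or below 50.2 on each Th2-4th array, and the summed signal of the list was 882, 1287 and 406. Epcam gave 677, 2541 and 418, and the other 7 stromal and erythroid markers were at or below 82.8. Whether cells of these types took part in the changes was not tested.

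Genes that did not respond to anti-TCR by 2-fold were also among the lowest. Ptpn13, a tyrosine phosphatase, gave 3039, 1905 and 466, and Prxl2a, of the peroxiredoxin-like family, 14105, 11393 and 3525. The mean over its probe sets put Prxl2a at -0.90. Another probe set of Prxl2a fell from 5879 to 2036, and a further one, far below the array median, gave 1.69 and 2.41. Lama5, a laminin chain, gave 1388, 2669.8 and 703, Rps6ka5, the kinase MSK1, 2720.3, 2075 and 638, and Tent5a, a poly(A) polymerase, 5311, 6676 and 2137. Haghl, a relative of glyoxalase II, gave 907, 986 and 251, with 3 other probe sets at or below 250 on both stimulated arrays, of which 2 had ratios above 0. All of these genes were within 2-fold of their unstimulated signal in stimulated control cells and fell to well below it with GATA3 siRNA. Of the genes that anti-TCR lowered, Ms4a4b, a tetraspan membrane protein of T cells, fell further, with 7449, 1648 and 553, as did Fgl2, a fibrinogen-like protein, with 11628, 5025 and 2271. The other lowered genes among the lowest were within 2-fold, with ratios of -0.93 for the amino acid transporter gene Slc43a2, -0.90 for Padi2, which converts arginine to citrulline in proteins, -0.90 for D17H6S56E-5 and -0.90 for the small GTPase gene Rab31. Sorl1, a sorting receptor, stood at -0.87 and Sytl2, a granule transport protein, at -0.82.

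Many of the genes that rose furthest were induced by anti-TCR from dim signals. Tgm2, tissue transglutaminase, gave 11.5 in unstimulated control cells, 76.8 in stimulated control cells and 434 in stimulated GATA3 siRNA cells, a knockdown ratio of 2.50 with a control signal close to the array median. Its probe sets differed. The one brightest in stimulated control cells went only from 176 to 196, a ratio of 0.16. The others had ratios of 2.59, 1.18, 0.997 and, with both signals below the array median, -0.46. Mmp13, a collagenase, gave 2.42, 1883 and 5588, and Mpzl2, an adhesion protein, 10.6, 1958 and 5385. Dsp, the desmosome protein desmoplakin, gave 21.6, 369.9 and 1026, and Arc, an immediate early gene best known from neurons, 3.42, 329 and 892. In the latter 4 the siRNA signal was over 2-fold above an already induced control signal. Genes lowered by anti-TCR rose as well. Sgk1, a kinase downstream of PI3 kinase, gave 4868, 1649 and 4532, close to its unstimulated signal. Foxo3, a forkhead factor of quiescence, gave 4923, 439 and 939.9, far below it, and another probe set of Foxo3 stood at 0.16. Rps27, a ribosomal protein with many pseudogenes, gave 595, 419.9 and 1074, and its signal may be shared with them.

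Further genes among the highest ratios had a control signal at or below 250. C430002N11Rik gave 5.17, 139 and 469.9, Insm1, a zinc finger factor of neuroendocrine cells, 0.8, 119 and 335, and Ccn3, a matricellular protein, 52.6, 101 and 278. Marveld1, a membrane protein, gave 1838, 180.4 and 562, so that its siRNA signal stayed below the unstimulated one. Its other probe sets, at or below 250 on both stimulated arrays, had ratios of 0.20, -0.07 and, below the array median, 3.36. The predicted gene Gm19531 was brighter, with 40.6, 598 and 1682. Of genes lowered by anti-TCR, Gcnt2, a glycosyltransferase, gave 638, 290.2 and 722, and Pde7a, which degrades cyclic AMP, 1432, 597 and 1354, both near their unstimulated signal with GATA3 siRNA. The zinc finger gene Zfp943 and Sdhaf4, an assembly factor of succinate dehydrogenase, stood at 1.15 and 1.09. Genes within 2-fold after anti-TCR rose little past the threshold. Their ratios were 1.16 for the chaperone gene Hspa4l, 1.08 for the replication factor gene Rfc3, 1.06 for Mfhas1, 1.05 for the small GTPase gene Rap2b, 1.04 for Xdh, xanthine dehydrogenase, 1.03 for Eps8, an actin regulator, and 1.02 for Fam229b.

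The same siRNAs were used in Th2-1st cells on arrays of their own, so the 2 knockdown ratios share no array. An effect of this siRNA other than through GATA3 and an effect of GATA3 cannot be told apart, in 1 culture or in both. In Th2-1st cells, 76 of the 7523 genes over 250 in that pair fell (1.01%) and 101 rose (1.34%). The 2 cultures shared 38 genes that fell, 37.6% of the Th2-4th and 50.0% of the Th2-1st genes, and 19 that rose, 26.4% and 18.8%. Of the 101 genes that fell in Th2-4th cells 85 had a ratio below 0 in Th2-1st cells, with medians of -1.35 and -0.87, and of the 72 that rose 60 had a ratio above 0, with medians of 1.22 and 0.81. Over all 7679 genes the median Th2-1st ratio was 0.00. In Th2-1st cells, 73 of the 101 genes and 45 of the 72 were over 250, and none of these was called in the opposite direction. With 1.34% risen and 1.01% fallen among all Th2-1st genes, few opposite calls could arise in so few genes.

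Individual genes differed between the cultures, although with 1 array per condition the differences were not tested. Il5 fell from 26465 to 909 in Th2-1st cells, a ratio of -4.86 against -2.04 in Th2-4th cells. Il13 fell from 15757 to 1506, a ratio of -3.39 against -0.96, and Gzma from 19928 to 4540.5, a ratio of -2.13 against -0.34. The siRNA signal of these 3 genes was thus nearer to the control on the Th2-4th arrays. In stimulated Th2-4th control cells Il5, Il13 and Gzma gave 44722, 35292 and 50804, and the brightest probe set 58757. Whether signals near the top of the scale narrowed the Th2-4th ratios was not tested. The ratio of Cxcr6, a chemokine receptor of effector cells, was -2.32 in the former culture and -0.42 in the latter. In the other direction Clcf1, a B cell stimulating cytokine, had ratios of 2.01 and 0.64, Tnf of 1.86 and 0.55 and the death receptor gene Fas of 0.97 and -0.72. The ratios were likewise lower in Th2-4th cells for Idi2, of isoprenoid synthesis (1.63 and 0.00), Rgs3, a regulator of G protein signalling (0.93 and -0.63), the calcium-binding protein gene S100a4 (1.90 and 0.36) and Tpst1, a tyrosine sulfotransferase (0.92 and -0.46). They were higher there for the drug transporter gene Abcg2 (-2.65 and -0.87) and the cell cycle inhibitor gene Cdkn1b (-0.86 and 0.47). Lif, at 0.62 and -1.32, changed sign and fell past 2-fold only in Th2-4th cells. Mmp13 stood at -0.25 in Th2-1st cells and rose in Th2-4th cells. Itgae and Bmp2 had control signals of 57.2 and 28.5 in Th2-1st cells, below the array median there, so that their fall in Th2-4th cells has no counterpart to compare. Gpr183 was dim as well but above that median, with 174 and 164, a ratio of -0.09.

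**Figure D4:**
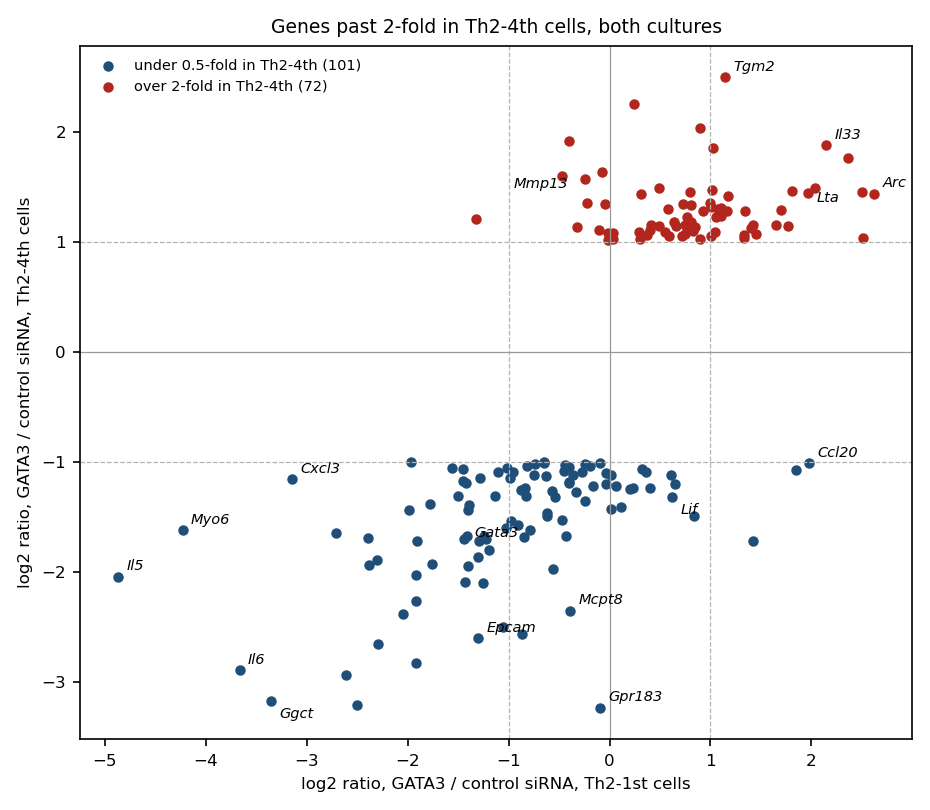
Knockdown ratio (log2) in Th2-4th cells (vertical axis) against Th2-1st cells (horizontal axis) for the 101 genes under 0.5-fold (blue) and the 72 over 2-fold (red) in Th2-4th cells, 1 point per gene and dashed lines at 2-fold. The genes were chosen on the vertical axis, and most blue points lie left of 0 (85 of 101) and most red points right of it (60 of 72).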

How the data were processed

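RNA of 6 cell samples was labelled with the GeneChip 3' IVT Express Kit and hybridized to Affymetrix mouse genome arrays, 1 array per condition. The authors deposited 1 linear signal intensity per probe set. The submitters' processing notes name Affymetrix Expression Console, with a version and summary method not given in the sources used here. The mean of these intensities without the lowest and highest 2% was 500.0 on every array, so the arrays had been scaled alike, and they were used as deposited. Detection calls were not used here.

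Of 45101 probe sets, 34958 named 1 gene, 932 several and 9211 none, and current symbols were taken from RefSeq, which held 99.4% of the first. The result was 18194 genes, 9012 with several probe sets. Ratios under 0.5 or over 2 were called, after the study's threshold. With 1 array per condition no test was run and precision is limited by that number. The counting steps were checked on simulated data.

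The genes named were Gata3, the 15 lowest and 15 highest ratios with both signals at least the array median, all genes of the study's 2 lists over the signal limit, up to 6 called genes of each function list, the 8 lowest and 8 highest of each anti-TCR class with both signals over 250, and the 8 largest differences between cultures in each direction with all 4 signals over 250. List members within 2-fold are named as examples. The 32 function and study lists, the 6 marker lists and the members were chosen with earlier results of these data known. Alternatives were to average a gene's probe sets, to take the one with the largest ratio, leaving out probe sets that can cross-hybridize, centring or quantile normalization, a floor at the array median, other signal limits, the study's threshold for a substantial change (3.16-fold) and the class from Th2-1st arrays. Promoter sequences are from RefSeq (GRCm38.p6), which held windows for 85 of the 101 genes that fell and 55 of the 72 that rose. Computations ran in Python 3.11.15 (numpy 2.4.6 and pandas 2.3.3), and plots were drawn with matplotlib 3.10.9.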

Additional observations from a re-analysis of the deposited data

Results flagged for a closer look

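In 3 genes that fell in Th2-4th cells and had a signal over 250 on at least 1 of the stimulated Th2-1st arrays, the ratio in Th2-1st cells pointed the other way by more than 0.5 on the log2 scale. With 1 array per condition this difference was not tested. Lif stood at -1.32 in Th2-4th and 0.62 in Th2-1st cells, where its stimulated signals were 2229 with control siRNA and 3435 with GATA3 siRNA. Ptprk, a receptor tyrosine phosphatase, stood at -1.20 and 0.65, with 254 and 111 in Th2-4th cells and 164 and 256 in Th2-1st cells, all at or just above the signal limit on 1 array of each pair. Ubald1 stood at -1.12 and 0.61, with 319 and 146 in Th2-4th cells and 171 and 262 in Th2-1st cells. Ccl20, Adamts1, Vegfc and Ndnf, which fell in Th2-4th cells, had ratios of 1.98, 1.84, 1.42 and 0.84 in Th2-1st cells. Olfm1, which rose, had one of -1.33. Both Th2-1st signals of each gene were below 250, and those of Adamts1 and Vegfc below the array medians of 61.8 and 69.6. In Th2-1st cells other probe sets gave 1.11 and -2.76 for Vegfc, -0.90 for Ndnf and 1.40 and 0.66 for Olfm1, so the sign differed within these genes.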

How the results depend on the processing

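The counts of genes that fell and rose (101 and 72), and of called genes among those raised, lowered or left within 2-fold by anti-TCR (87, 30 and 56), depended on the signal limit and the threshold. With the higher signal over 500 they were 67 and 40, with 14 called among lowered and 33 among unresponsive genes. With the higher signal over the array median they were 386 and 331, and 239, 182 and 296 in the classes. With both signals over 250 they were 60 and 36, and 53, 13 and 30. At the study's threshold for a substantial change (3.16-fold) they were 34 and 7, and 27, 2 and 12. In every other alternative all 5 counts were within 1.5 times these, with 90 fallen and 92 risen genes after centring and 98 and 76 after quantile normalization. Of 80 named genes past 2-fold, 76 remained so after centring and 76 after quantile normalization. With the mean over probe sets 56 of 62 did, and Cyp11a1 turned from -1.94 to 0.19, its 2 other probe sets having ratios of 0.30 and, from dim signals, 2.20. No paired analysis was possible because each condition has 1 array and the labels carry no replicate numbers, and no array could be left out for the same reason. Dim signals limit the ratios of genes near the array median, and the 1 array per condition limits all of them.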

Other observations

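Several called genes lay next to each other in the genome, as the RefSeq gene order gives it. On chromosome 7 the kinase gene Fes and the protease gene Furin both fell, with ratios of -1.68 and -1.03, and so did Abhd17c, a depalmitoylating enzyme, and Arnt2, a partner of bHLH-PAS factors, with -1.87 and -1.05. Nts, which encodes neurotensin, and Tmtc2 on chromosome 10 fell with -1.44 and -1.95, and Orai1, the calcium channel of store-operated entry, and its neighbour A930024E05Rik on chromosome 5 with -1.02 and -1.31. Ipcef1 and Lrp11 on chromosome 10 both rose, with 1.16 and 1.09. Batf3 and Atf3 on chromosome 1 and Gpr18 and Gpr183 on chromosome 14 went in opposite directions. These pairs were noticed after the values were seen, and how many pairs chance would give was not tested.

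A few other genes that fell, named after their values were seen, belong to secretion and stress. Ero1a, an oxidase of protein folding in the endoplasmic reticulum, gave 8891, 24809.8 and 9472 in unstimulated control, stimulated control and stimulated GATA3 siRNA cells, and 2 other probe sets fell with it, with ratios of -1.72 and -1.41. Hspa1b, a heat shock protein, gave 183, 1677 and 656. Vegfc, a lymphangiogenic growth factor, gave 574, 1979 and 602 in Th2-4th cells and was dim in Th2-1st cells, at 8.83 and 23.6 after stimulation.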
